A study of Mus musculus with 6 samples.

Results

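The 10 genes studied modify and cross-link collagen: the prolyl 4-hydroxylase subunits P4ha1, P4ha2 and P4ha3, the lysyl hydroxylases Plod1, Plod2 and Plod3, and the lysyl oxidases Lox, Loxl1, Loxl2 and Loxl3. They were found by symbol in a deposited table of 21853 genes, where each of the 10 stood on 1 row. Messenger RNA was sequenced from cultured fibroblasts of mouse embryos, the cells that lay down connective tissue. All cells were of the C57BL/6J strain and carried the xCT knockout, which removes the cystine/glutamate antiporter encoded by Slc7a11. The label for age reads 12 days. The control group (n = 3) was given water and the other group (n = 3) red clover extract (RCE); the sources used here do not give dose, exposure time or culture conditions. Nothing says that replicates are separate cultures or animals, so the p-values rest on a spread among libraries that could be technical. The 4 genes taken as known to be induced by hypoxia were P4ha1, P4ha2, Plod2 and Lox, and they were set beside the other 6. This grouping was given with the question and may be incomplete, since some of the other 6 may also respond to hypoxia.

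Collagen chains are hydroxylated in the endoplasmic reticulum before they fold and leave the cell. Prolyl 4-hydroxylase, in which an alpha subunit (P4ha) joins the protein disulfide isomerase P4hb, makes the 4-hydroxyproline that keeps the collagen helix stable at body temperature, and the Plod enzymes make hydroxylysine, which carries sugars and forms the stronger kinds of cross-link. Both are dioxygenases that need iron, oxygen, 2-oxoglutarate and ascorbate. Outside the cell the lysyl oxidases, which are copper enzymes, oxidise lysine and hydroxylysine so that collagen and elastin fibres become cross-linked. In hypoxic fibroblasts the hypoxia-inducible factor (HIF) raises transcription of several of these genes.

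The core sequence that HIF binds is ACGTG or GCGTG, which reads CACGT or CACGC on the other strand. Promoter sequences from RefSeq (GRCm38.p6, the build called mm10 elsewhere) were used for P4ha1, P4ha2, P4ha3, Plod1 and Plod3. The 250 bases before each annotated start were searched for these letters on both strands, with overlapping matches counted separately. Lox was left out of the search, and no promoter sequence was at hand for Plod2, Loxl1, Loxl2 or Loxl3. Those of the P4ha genes are shown because the 3 of them fell together. They lie at chr10:59323046-59323295 (P4ha1), chr11:54100674-54100923 (P4ha2) and chr7:100285270-100285519 (P4ha3), all on the plus strand, and capitals mark the matches. The window of P4ha2 lies inside the gene as GENCODE draws it, since the gene start given there (54100095) is further upstream.
P4ha1: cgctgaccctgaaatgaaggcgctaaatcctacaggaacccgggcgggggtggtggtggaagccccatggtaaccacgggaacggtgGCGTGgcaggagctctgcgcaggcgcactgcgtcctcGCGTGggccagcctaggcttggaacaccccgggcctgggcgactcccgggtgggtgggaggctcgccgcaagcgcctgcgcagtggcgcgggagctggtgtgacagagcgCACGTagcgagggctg
P4ha2: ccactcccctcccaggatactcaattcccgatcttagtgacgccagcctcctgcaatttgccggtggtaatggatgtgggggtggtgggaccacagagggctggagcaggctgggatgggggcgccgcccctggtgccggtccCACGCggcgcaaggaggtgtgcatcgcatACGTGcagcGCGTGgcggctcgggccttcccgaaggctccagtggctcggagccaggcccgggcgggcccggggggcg
P4ha3: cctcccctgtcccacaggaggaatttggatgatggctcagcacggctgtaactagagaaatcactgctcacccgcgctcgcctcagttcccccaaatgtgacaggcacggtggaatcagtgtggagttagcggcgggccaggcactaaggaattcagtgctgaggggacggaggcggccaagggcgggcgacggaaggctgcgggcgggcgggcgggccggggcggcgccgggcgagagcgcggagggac
P4ha1 and P4ha2 had 3 matches each, P4ha3 had 0, Plod1 had 1 and Plod3 had 4. The matches of P4ha1 began 163, 126 and 16 bases before the start, and those of P4ha2 107, 78 and 69 bases before it. Of 32851 RefSeq promoter windows of the same length, 38.6% held at least 1 match, 6.58% at least 3 and 2.58% at least 4. A match describes letters in a window and is not evidence of binding.

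With the extract, the hydroxylases were lower and the lysyl oxidases were not. In each of the 6 hydroxylase genes every RCE library lay below every control library, whereas none of the 4 lysyl oxidase genes had that pattern. P4ha1, P4ha2, P4ha3, Plod1 and Plod2 fell at an adjusted p below 0.05 in limma with Benjamini-Hochberg adjustment over 10870 genes, and Plod3 and the 4 oxidases did not pass. Among all genes tested 6.77% were called lower and 17.6% higher, and in 10.9% every RCE library lay below every control library. With replicate number as a block, 6 of the 10 were lower and 1 higher, where 15.9% and 46.6% of all genes were called. These are bulk samples, in which fewer cells of a type and less RNA per cell cannot be told apart.

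**Figure D1:**
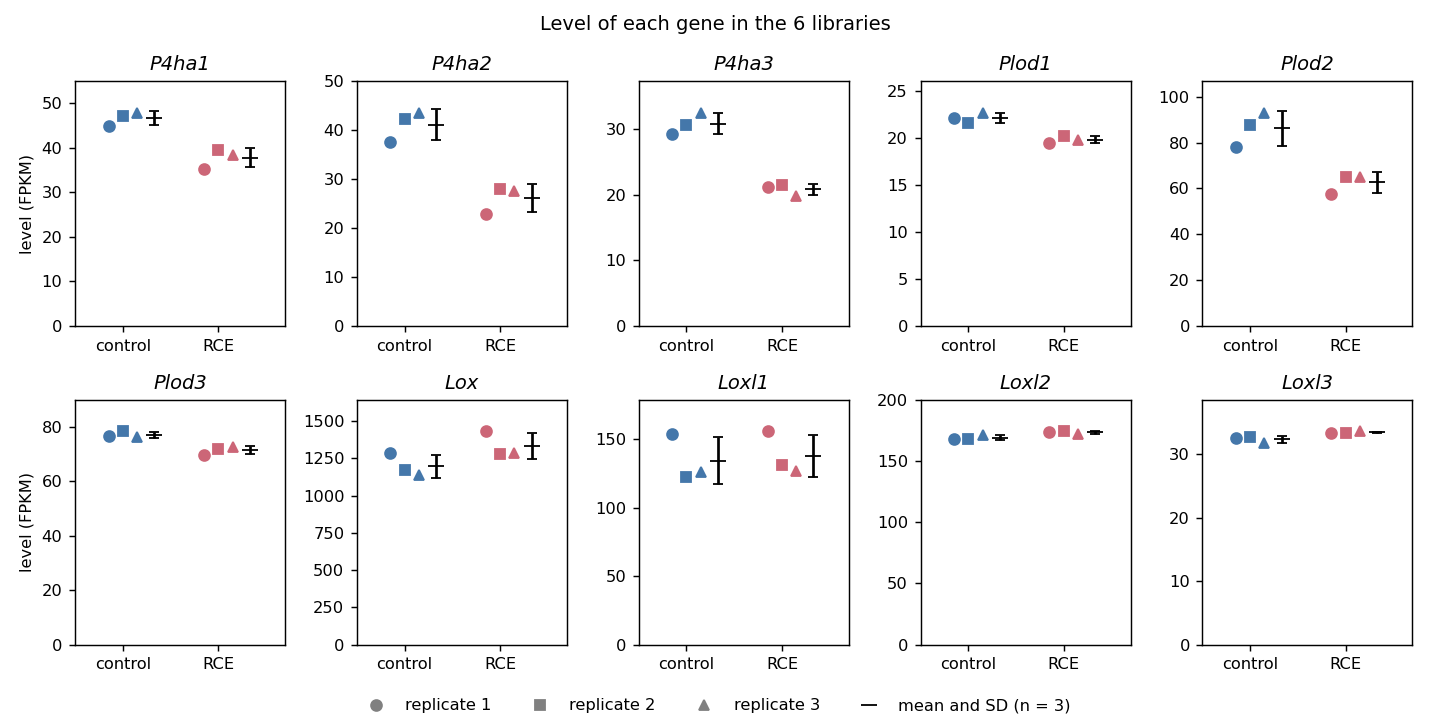
Level in FPKM (vertical axes, from 0) of each gene in the 3 control and 3 RCE libraries, with marker shape for the replicate number and a bar for mean and SD (n = 3). In the 6 hydroxylase panels the RCE points lie below all control points, while the points of Lox and Loxl1 overlap between groups and those of Loxl2 and Loxl3 are slightly higher with RCE.

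Levels are in FPKM, fragments scaled by transcript length and library depth, and are means ± SD (n = 3) unless single libraries are given. Fold changes are RCE minus control on the log2(FPKM + 1) scale. Library depth, read from the steps between low values, was 45650000 to 58950000 fragments. All 10 genes passed the low-value filter (average over the libraries of 1 FPKM or more) by a wide margin. Slc7a11, the gene knocked out, was at 0.013 to 0.037 FPKM in control and 0.007 to 0.017 FPKM in RCE libraries. The median change of all tested genes was +0.08, and the higher calls were 1910 against 736 lower; with median-of-ratios scaling, which takes that median to 0.00, they were 913 (8.4% of genes tested) and 1082 (9.95%), and 6 of the 10 genes, Plod3 now included, were lower and 0 higher. Replicate 1 of both groups stood apart from replicates 2 and 3. All 10 fibroblast markers were above 1 FPKM. Their summed level was 6073 to 6477 FPKM in control and 5521 to 5896 FPKM in RCE libraries. Every RCE library lay below every control library for Col1a1, Vim, Pdgfrb and Dcn. The groups overlapped for Col1a2, Col3a1, Pdgfra, Thy1, Lum and Fn1. Col1a1, Col1a2, Col3a1 and Fn1 are also among the collagen and partner genes described below. The part of this shift of the sum in the results was not tested. The epithelial, adipocyte and neural lists, of 5 markers each, had no marker at a mean of 1 FPKM. Of the endothelial, leukocyte, muscle and cartilage and bone lists, Pecam1, Cdh5, Tie1, Ptprc, Itgam, Actc1, Myod1, Myog, Acan and Ibsp were under 0.1 FPKM in every library. Kdr, Cd68, Myh11, Des, Col2a1 and Sox9 had a mean of at least 1 FPKM. The summed levels of these lists, in that order, with RCE against control were 1.33 to 1.61 against 1.42 to 1.67, 3.18 to 4.37 against 3.99 to 4.72, 60.8 to 70.1 against 50.3 to 58.1 and 4.12 to 6.43 against 11.7 to 16.5 FPKM. Des was higher with RCE (49.5 to 57.8 against 37.7 to 44.3 FPKM), while Myh11 overlapped (10.9 to 12.3 against 11.8 to 13.8 FPKM). Sox9 was lower (2.62 to 4.74 against 10.3 to 14.7 FPKM), while Col2a1 overlapped (1.388 to 1.595 against 1.368 to 1.651 FPKM). The part of the muscle list, led by Des, and of the cartilage and bone list, led by Sox9, in the results was not tested.

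P4ha2 (ENSMUSG00000018906, chromosome 11, 54100095 to 54131665 on mm10) encodes a catalytic alpha subunit of prolyl 4-hydroxylase and was the most strongly lowered of the 10 genes. It was at 37.5, 42.2 and 43.5 FPKM in control replicates 1, 2 and 3, and at 22.9, 27.9 and 27.6 FPKM in RCE replicates 1, 2 and 3. The highest RCE library was well below the lowest control library, and replicate 1 was the lowest library of each group. The mean fell by 36.4%, from 41.1 ± 3.14 to 26.1 ± 2.79 FPKM (log2 change -0.64, SE 0.09, 95% interval -0.86 to -0.41, adjusted p = 0.00587 in limma). With median-of-ratios scaling the change was -0.72, and P4ha2 remained past the threshold under each of the 18 alternatives.

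P4ha3 (ENSMUSG00000051048, chromosome 7, 100285520 to 100319699), an alpha subunit that is not among the genes taken as hypoxia-induced, had a change of similar size. Its levels were 29.3, 30.6 and 32.4 FPKM in the control libraries and 21.1, 21.5 and 19.8 FPKM in the RCE libraries. The groups were far apart compared with the spread within either. The mean fell by 32.3%, from 30.8 ± 1.60 to 20.8 ± 0.871 FPKM (log2 change -0.54, SE 0.06, 95% interval -0.68 to -0.41, adjusted p = 0.00189 in limma). This was the smallest adjusted p of the 10 genes, and the call held under all 18 alternatives.

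P4ha1 (ENSMUSG00000019916, chromosome 10, 59323296 to 59373304), the alpha subunit with the highest level of the family, changed less. Control libraries were at 44.9, 47.2 and 47.7 FPKM and RCE libraries at 35.3, 39.4 and 38.3 FPKM. There was again no overlap, and replicate 1 was the lowest of each group. The mean fell by 19.1%, from 46.6 ± 1.50 to 37.7 ± 2.16 FPKM (log2 change -0.30, SE 0.06, 95% interval -0.44 to -0.16, adjusted p = 0.0133 in limma). The call ended without control replicate 2 (adjusted p = 0.0571) and without control replicate 3 (adjusted p = 0.0584), at changes of -0.29 and -0.28.

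The summed level of the 3 alpha subunits was 112, 120 and 124 FPKM in control and 79.3, 88.8 and 85.8 FPKM in RCE libraries. The share of P4ha1 in that sum was 40.2, 39.3 and 38.6% in control and 44.5, 44.4 and 44.7% with RCE, and every RCE library lay above every control library. P4ha2 held 33.6, 35.2 and 35.2% in control and 28.9, 31.4 and 32.2% with RCE. The share of P4ha3 overlapped between groups (25.5 to 26.2% and 23.1 to 26.6%). So the makeup of the alpha subunit RNA moved towards P4ha1, and these shares were described without a test.

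**Figure D2:**
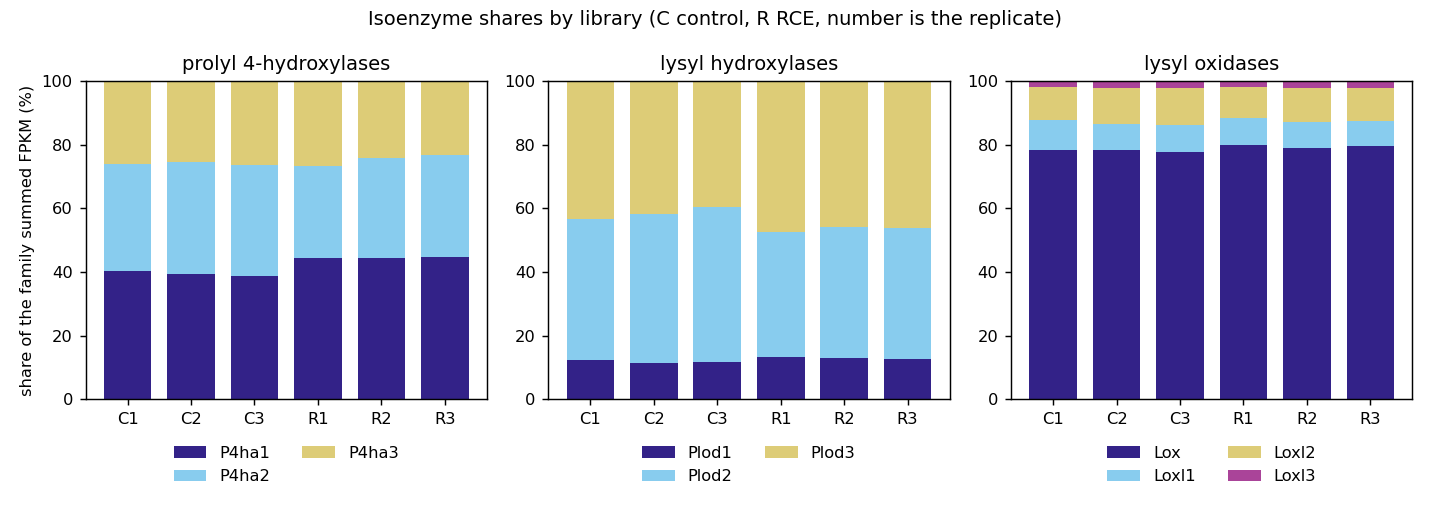
Share of each gene in the summed FPKM of its family (vertical axis, percent) in the 6 libraries, C for control and R for RCE with the replicate number. P4ha1 rises from 38.6 to 40.2% in control to 44.4 to 44.7% with RCE, and Lox makes up 77.5 to 79.8% of the lysyl oxidase sum in every library. The share of Plod2 falls and that of Plod3 rises (39.7 to 43.3% in control, 45.7 to 47.6% with RCE), although the level of Plod3 is also lower with RCE.

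Plod2 (ENSMUSG00000032374, chromosome 9, 92542223 to 92608428) encodes the lysyl hydroxylase that acts on the telopeptides, the chain ends from which cross-links form. It was at 78.1, 87.7 and 92.9 FPKM in control replicates 1, 2 and 3 and at 57.5, 65.1 and 65.2 FPKM in the RCE replicates. All RCE libraries were below all control libraries, with replicate 1 again the lowest of each group. The mean fell by 27.4%, from 86.2 ± 7.53 to 62.6 ± 4.41 FPKM (log2 change -0.45, SE 0.08, 95% interval -0.66 to -0.25, adjusted p = 0.0122 in limma). Without control replicate 2 the call ended (-0.44, adjusted p = 0.0531).

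Plod1 and Plod3, whose enzymes hydroxylate lysine in the helical part of collagen and, for Plod3, also attach the sugars, changed by less. Plod1 (ENSMUSG00000019055, chromosome 4, 147909753 to 147936767) was at 22.1, 21.7 and 22.7 FPKM in control and 19.5, 20.2 and 19.8 FPKM in RCE libraries. Its mean fell by 10.5% (log2 change -0.15, SE 0.04, adjusted p = 0.0394 in limma), and the call ended when any single library was left out (adjusted p = 0.0743 to 0.137). Plod3 (ENSMUSG00000004846, chromosome 5, 136987019 to 136996648) was at 76.6, 78.3 and 76.2 FPKM in control and 69.8, 71.9 and 72.8 FPKM in RCE libraries. The groups of Plod3 did not overlap, but the difference did not pass the threshold (log2 change -0.11, SE 0.04, 95% interval -0.21 to -0.0049, adjusted p = 0.118 in limma). With replicate number as a block it did (adjusted p = 0.00771), and with median-of-ratios scaling the change was -0.19 (adjusted p = 0.0215). Annotated exons of Plod3 overlap those of Znhit1 on the opposite strand over 529 bases, and the sources used here do not say whether counting used strand.

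Within the lysyl hydroxylases the order of levels changed. In control libraries Plod2 and Plod3 overlapped (78.1 to 92.9 and 76.2 to 78.3 FPKM), while with RCE each library of Plod3 was above each of Plod2 (69.8 to 72.8 and 57.5 to 65.2 FPKM). The share of Plod2 in the family sum was 44.2 to 48.5% in control and 39.2 to 41.4% with RCE. The sum was 177 to 192 FPKM in control and 147 to 158 FPKM with RCE.

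Lox (ENSMUSG00000024529), the lysyl oxidase that gives the family its name, was by far the most abundant of the 10 transcripts and, though known as hypoxia-induced, was not lower. It was at 1284, 1169 and 1138 FPKM in control replicates 1, 2 and 3 and at 1431, 1281 and 1288 FPKM in the RCE replicates. Replicate 1 was the highest of each group, and control replicate 1 lay above RCE replicate 2, so the groups overlapped. Each RCE library was above the control library of the same number. Means were 1197 ± 76.9 and 1333 ± 84.4 FPKM (log2 change 0.16, SE 0.08, 95% interval -0.03 to 0.34, adjusted p = 0.188 in limma). With replicate number as a block Lox was called higher (0.16, 95% interval 0.08 to 0.23, adjusted p = 0.00476 in limma), as were 46.6% of all genes. It was also called higher without both libraries numbered 1 (0.16, adjusted p = 0.0161 in limma), as were 4364 of 10870 genes. With median-of-ratios scaling the change was 0.07 (adjusted p = 0.647).

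The other lysyl oxidases differed little between groups. Loxl1 (ENSMUSG00000032334, chromosome 9, 58287738 to 58313186), known for its part in elastic fibres, was at 154, 123 and 126 FPKM in control and 156, 131 and 127 FPKM in RCE libraries. Its replicate 1 libraries were the highest of both groups, and the change was 0.04 (95% interval -0.24 to 0.32, adjusted p = 0.846 in limma). Loxl2 (ENSMUSG00000034205, chromosome 14, 69609068 to 69695834), which cross-links basement membrane collagen IV, was at 168, 168 and 171 FPKM in control and 174, 174 and 172 FPKM in RCE libraries. The groups of Loxl2 did not overlap, yet the change was only 0.03 (95% interval -0.07 to 0.14, adjusted p = 0.589 in limma). Loxl3 (ENSMUSG00000000693, chromosome 6, 83034173 to 83052562) was at 32.5, 32.7 and 31.7 FPKM in control and 33.4, 33.4 and 33.6 FPKM in RCE libraries (log2 change 0.05, 95% interval -0.05 to 0.14, adjusted p = 0.416 in limma). Every RCE library lay above every control library for Loxl2 and Loxl3, which holds for 31.2% of all genes tested. With median-of-ratios scaling the changes of Loxl1, Loxl2 and Loxl3 were -0.05, -0.05 and -0.04, so their sign rests on the scaling. None of the 3 passed the threshold under any of the 18 alternatives, block included. Exons of Loxl3 overlap those of Htra2 on the opposite strand over 535 bases.

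**Figure D3:**
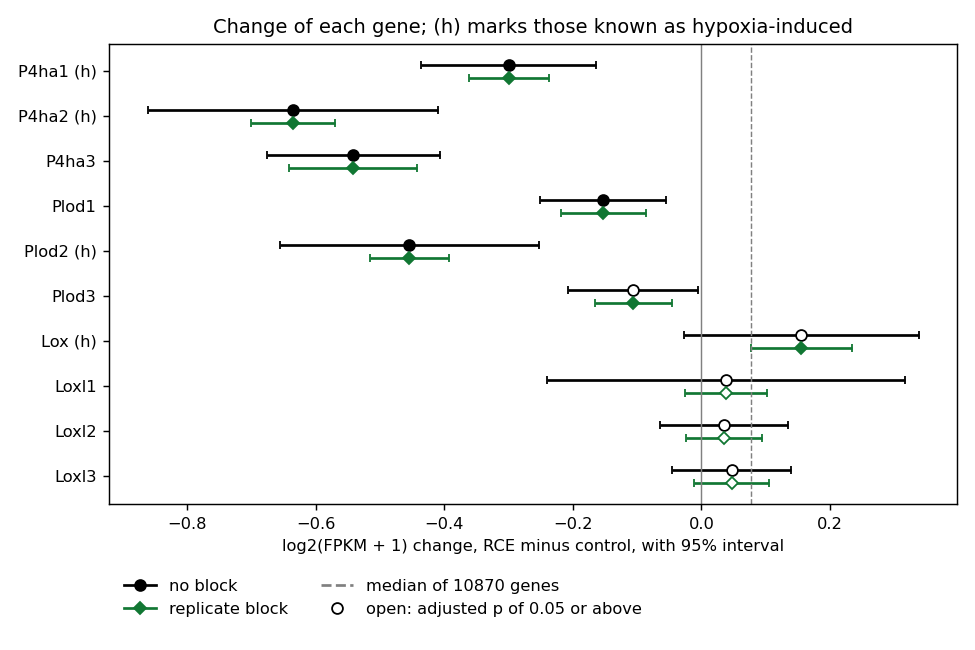
Log2(FPKM + 1) change, RCE minus control, with its 95% interval (horizontal axis) for the 10 genes, without a block (black) and with replicate number as a block (green); filled symbols have an adjusted p below 0.05. The P4ha and Plod genes lie left of 0, the Lox genes lie around the dashed median of all genes (+0.08), and the genes marked (h) as hypoxia-induced are found on both sides.

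Enzyme class separated the changes without overlap, and the given grouping by hypoxia induction did not. The groupings are not independent, since P4ha1, P4ha2 and Plod2 are also hydroxylases. Of the 4 hypoxia-induced genes 3 fell, with a median change of -0.38 over the 4, and of the other 6 genes 2 fell, with a median of -0.04; the median over all tested genes was +0.08. The ranges overlapped, from -0.64 (P4ha2) to 0.16 (Lox) and from -0.54 (P4ha3) to 0.05 (Loxl3). Lox had the highest change of all 10 and P4ha3, outside the hypoxia-induced set, the second most negative. By enzyme class the median changes were -0.54 for the prolyl 4-hydroxylases, -0.15 for the lysyl hydroxylases and 0.04 for the lysyl oxidases. All changes of the hydroxylases (-0.64 to -0.11) lay below all those of the oxidases (0.03 to 0.16). Within the hydroxylases, the hypoxia-induced P4ha2, Plod2 and P4ha1 changed by -0.64, -0.45 and -0.30. The others there, P4ha3, Plod1 and Plod3, changed by -0.54, -0.15 and -0.11. Per library, the mean log2(FPKM + 1) of the 4 hypoxia-induced genes minus that of the other 6 was 0.94, 1.05 and 1.05 in control and 0.73, 0.86 and 0.88 with RCE. These splits were described without a test because the genes were chosen with results known.

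By level, the order in control libraries was Lox, Loxl2, Loxl1, Plod2, Plod3, P4ha1, P4ha2, Loxl3, P4ha3 and Plod1. Neighbours whose libraries overlapped there were Plod2 with Plod3 and Loxl3 with P4ha3. With RCE, Loxl3 stood above P4ha2 (33.4 to 33.6 and 22.9 to 27.9 FPKM), and P4ha3 overlapped Plod1 (19.8 to 21.5 and 19.5 to 20.2 FPKM). The summed level of the 4 oxidases was 1468 to 1639 FPKM in control and 1620 to 1794 FPKM with RCE.

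For genes that work with these enzymes, the shares called among all genes tested, 6.77% lower and 17.6% higher, are the background. With the replicate block that background was 15.9% lower and 46.6% higher, and with median-of-ratios scaling 9.95% and 8.4%. Of 19 genes of collagen folding and modification, 18 were tested, 1 was higher and 1 lower, and the median change was -0.04. P3h2, a collagen prolyl 3-hydroxylase, rose from 7.43 ± 0.165 to 10.4 ± 0.316 FPKM (0.44, adjusted p = 0.00142 in limma), and P3h4, a partner of the lysyl hydroxylases, fell from 50.1 ± 2.04 to 43.8 ± 0.318 FPKM (-0.19, adjusted p = 0.0304 in limma). The call of P3h4 ended without control replicate 1, control replicate 2, RCE replicate 2 or RCE replicate 3, and with quantile normalization or GC correction. Without RCE replicate 1 Fkbp11 was also called, giving 2 higher, and with median-of-ratios scaling P3h3 and Sparc were, giving 3 lower. P4hb, the subunit that every alpha subunit needs, was at 243 ± 10.5 and 229 ± 16.3 FPKM (-0.08, adjusted p = 0.428 in limma, and 0.0310 with the replicate block, which calls it lower), and the collagen chaperone Serpinh1 at 642 ± 41.8 and 696 ± 37.5 FPKM (0.12, adjusted p = 0.290 in limma, and 0.0107 with the block, which calls it higher). With replicate number as a block 7 genes of this list were lower and 4 higher, where 15.9% and 46.6% of all genes were called.

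Of 12 substrate genes, the fibrillar collagens and elastin, 9 were tested, 4 fell and 0 rose, with a median change of -0.17. Col5a3 went from 8.77 ± 0.514 to 5.50 ± 0.416 FPKM (-0.59, adjusted p = 0.00234 in limma) and elastin (Eln) from 2.99 ± 0.271 to 1.76 ± 0.125 FPKM (-0.53, adjusted p = 0.00321 in limma). Col11a1 and Col5a1 fell by 0.28 and 0.19 on the log2 scale. Col5a3 and Eln were called without any 1 library, whereas the call of Col5a1 ended without each library but RCE replicate 1, with no low-value filter and with quantile normalization, and that of Col11a1 without each library but control replicate 1, with no low-value filter and with a mean of at least 5 FPKM. With the replicate block 6 were lower, against 15.9% of all genes. The abundant Col1a1 and Col1a2 were not called (-0.10 and -0.05, adjusted p = 0.216 and 0.698 in limma), but the block called Col1a1 lower (adjusted p = 0.0333).

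Of 19 genes of procollagen cleavage and partners of the oxidases, 16 were tested, 2 fell and 1 rose, with a median change of -0.09. Tll1, a procollagen C-proteinase, went from 24.1 ± 3.20 to 17.2 ± 2.15 FPKM (-0.46, adjusted p = 0.0408 in limma), and fibromodulin (Fmod), which binds collagen and guides lysyl oxidase, from 4.64 ± 0.347 to 3.54 ± 0.210 FPKM (-0.31, adjusted p = 0.0146 in limma). The call of Tll1 ended without each library but control replicate 1, with no low-value filter (adjusted p = 0.0605) and with a mean of at least 5 FPKM (adjusted p = 0.0552), and that of Fmod without RCE replicate 2 (0.0594) or RCE replicate 3 (0.0551). With median-of-ratios scaling 6 of the list were lower, against 9.95% of all genes. Adamts14, a procollagen N-proteinase, rose from 3.09 ± 0.0741 to 4.58 ± 0.115 FPKM (0.45, adjusted p = 0.00101 in limma). Without control replicate 1, and with GC correction, Ltbp4 was called higher as well. Loxl4, the fifth lysyl oxidase gene, was at 23.0 ± 0.484 and 24.6 ± 0.327 FPKM (0.09, adjusted p = 0.144 in limma, and 0.0128 with the block, which calls it higher). With the replicate block 8 were lower and 3 higher, where 15.9% and 46.6% of all genes were called.

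Dioxygenases that hydroxylate proteins other than collagen gave 2 lower and 0 higher of 8 tested. Egln3 and Egln1, the HIF prolyl hydroxylases that are themselves HIF targets, went from 15.7 ± 0.795 to 3.94 ± 0.243 FPKM (-1.76, adjusted p = 3.24e-05 in limma) and from 19.6 ± 0.434 to 9.80 ± 0.609 FPKM (-0.93, adjusted p = 2.16e-04 in limma). Both changes were larger than that of any collagen hydroxylase. The median of the list was 0.05, and Egln2, Hif1an, Ogfod1, Asph, Riox1 and Riox2 ran from -0.00 to 0.17 without a call. Under the replicate block 2 of the 8 were higher, against 46.6% of all genes.

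**Figure D4:**
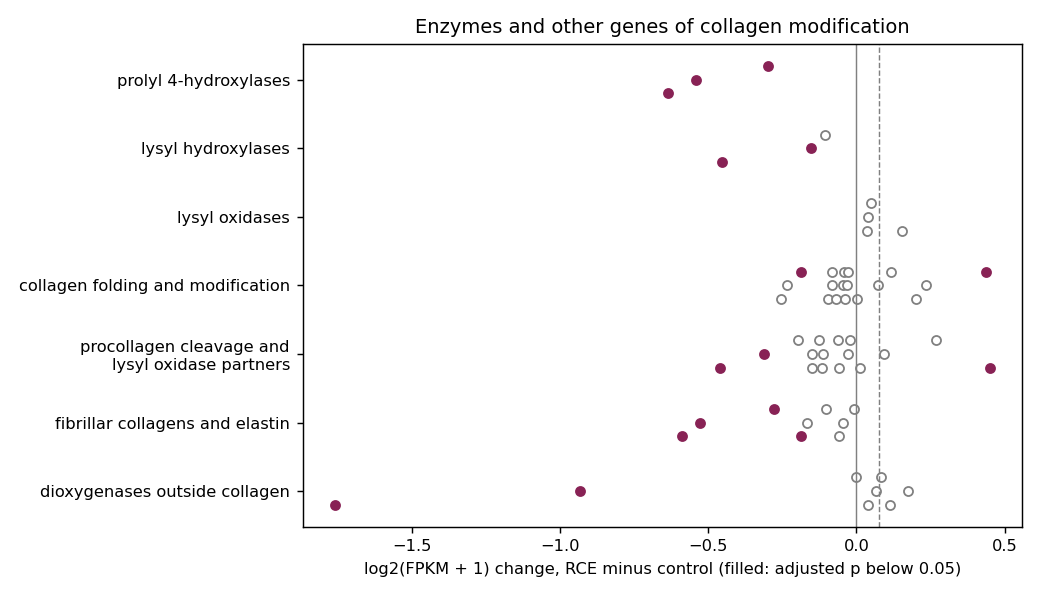
Log2(FPKM + 1) change, RCE minus control (horizontal axis), of each tested gene by class or list, filled where the adjusted p is below 0.05; the dashed line is the median of all genes. The prolyl 4-hydroxylases (-0.64 to -0.30) lie apart from most genes of collagen folding and modification, whose median is -0.04.

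The genes with the most similar profiles over the 6 libraries were named by the root mean square difference of log2(FPKM + 1) values after each gene's own mean was taken away, as a description of these libraries. Nearest to P4ha2 were Gm27027, C1qtnf3, Hsd17b7 and Gas2 (differences of 0.036 to 0.042, changes of -0.63 to -0.58). Nearest to Plod2 were Bnip3l, a mitophagy receptor known as a HIF target, Sap30, Rnf19a and Rspo2 (0.029 to 0.035, changes of -0.50 to -0.41). Nearest to Lox were Irak1, Rit1, Polr2e and BC037034 (0.0081 to 0.015, changes of 0.15 to 0.17), none of which passed the threshold. No other collagen hydroxylase or lysyl oxidase was among these 12 genes.

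**Figure D5:**
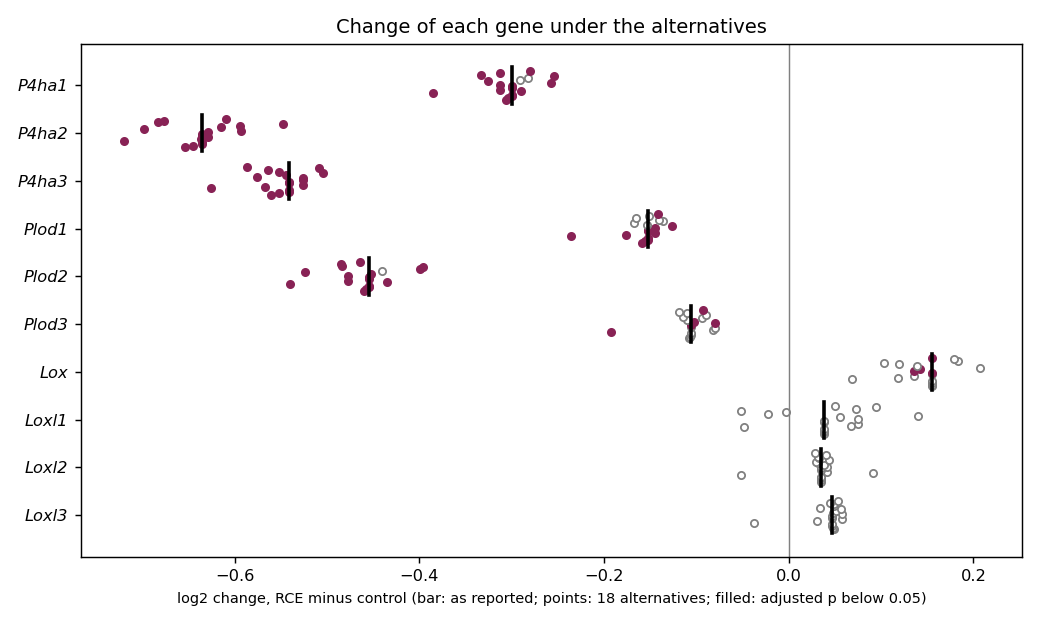
Log2 change, RCE minus control (horizontal axis), of each gene as reported (black bar) and under 18 alternative settings (points, filled where the adjusted p is below 0.05). P4ha2 and P4ha3 are filled throughout, P4ha1 is open in 2 settings, Plod2 in 1 and Plod1 in 6, and Loxl1, Loxl2 and Loxl3 are open throughout and fall on both sides of 0.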

How the data were processed

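The deposited table gave 1 FPKM value per gene and library, by the submitters' processing notes, which list Cuffdiff 2.2.1, Cufflinks, STAR 2.5.4 and the build mm10, with no roles. The sources used here do not give the annotation, filters, further scaling or use of strand. All 21853 identifiers were found in GENCODE M21 (same build), which gave coordinates and transcript lengths. Depth came from genes with 1 transcript, whose values between 0.02 and 0.5 FPKM are whole fragments (within 0.1) at 1 depth; 100% of 360 to 388 values per library were. Replicate pairs differed by more than counting error (chi-square per degree of freedom of 2.86 to 29.6).

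RCE was tested against control by limma (version 3.58.1, under R 4.3.3), applied to log2(FPKM + 1) for the 10870 genes averaging 1 FPKM or more, 2-sided, with a variance prior that follows level, with Benjamini-Hochberg adjustment over all of them, a threshold of 0.05 and no block. No count model or set test was used. The fit was tested on simulated data. Same-numbered libraries deviated together from their group means (correlations across genes of 0.92, 0.62 and 0.68). The numbers served as a block in alternatives only, and the labels give them no meaning. Control replicate 2 correlated more with RCE replicate 3 (0.77) and control replicate 3 with RCE replicate 2 (0.72), so the data set number 1 apart but do not order 2 and 3. Results with the block therefore rest in part on a pairing of 2 and 3 that the data do not fix. The 10 members and the lists were chosen with earlier results of these data known. All members, up to 4 called genes with the smallest p per list, genes that a comparison turns on and the 4 nearest profiles of P4ha2, Plod2 and Lox are named. Alternatives were other pseudocounts, filters and scalings, GC correction, no trend, the replicate block, array weights and libraries left out.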

Additional observations from a re-analysis of the deposited data

How the results depend on the processing

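P4ha2 and P4ha3 kept their direction and call under all 18 alternatives, P4ha1, Plod1 and Plod2 kept their direction, and Plod3 and Lox kept theirs with 5 and 4 alternatives that added a call. Loxl1 ran from -0.051 to 0.14 with 1 library left out and changed sign without RCE replicate 1 (-0.051), control replicate 2 (-0.022) and control replicate 3 (-0.0027), and with median-of-ratios scaling (-0.048), as did Loxl2 (-0.052) and Loxl3 (-0.037) with that scaling; the cause was not tested. Members called lower were 5 without a block and 6 with the replicate block, and 2 to 4 when 1 library was left out (2 without control replicate 2, 3 without control replicate 3), where fewer samples were tested; members called higher were 0 when 1 library was left out, and 1 (Lox) with the replicate block, the replicate block with GC correction, array weights and without both libraries numbered 1. The median of the 6 genes outside the hypoxia-induced group, -0.036, was -0.12 with median-of-ratios scaling and -0.070 to -0.039 with 1 library left out. That of the other 4 was -0.42 to -0.32 with 1 library left out. Of 51 genes tested in the 4 lists, 9 were lower and 2 higher, where 736 and 1910 of all 10870 tested genes were. With a mean of at least 5 FPKM, which tested 46, these were 5 and 1, beside 485 and 867 of 7816 genes. Lower and higher were 23 and 9 with the replicate block, beside 1730 and 5060 of 10870 genes. They were 21 and 9 with that and GC correction (1728 and 5012 of all genes), and 19 and 7 without both libraries numbered 1 (1480 and 4364). Array weights, whose estimation stopped before it converged, gave 20 and 9 (1731 and 5047). With median-of-ratios scaling 15 were lower (1082 of all genes). With 1 library left out 4 to 8 were lower (5 without control replicate 2, 4 without RCE replicate 2 or RCE replicate 3) and 2 to 3 higher. Among all genes those ranges were 394 to 734 and 685 to 2040.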

Other observations

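Within these pathways some genes were under the low-value filter of 1 FPKM. Of those named here, Colgalt2 and Tll2 had hardly any RNA in these fibroblasts, while Pcolce2 and P4htm lay nearer the filter. The collagen galactosyltransferase Colgalt1 had control and RCE levels of 61.5 ± 2.65 and 60.4 ± 2.96 FPKM (SD, n = 3), while its relative Colgalt2 was at 0.0253 ± 0.00924 and 0.0260 ± 0.00361 FPKM. Among the procollagen proteinases Bmp1 was at 50.4 ± 0.706 and 46.4 ± 0.340 FPKM and Tll2 at 0.0167 ± 0.00451 and 0.0180 ± 0.00693 FPKM. The enhancer of procollagen cleavage Pcolce was at 317 ± 32.6 and 312 ± 24.2 FPKM, and Pcolce2 at 0.727 ± 0.0757 and 0.513 ± 0.0300 FPKM. P4htm, the transmembrane prolyl 4-hydroxylase, was at 0.902 ± 0.161 and 0.894 ± 0.0850 FPKM.

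Atox1, the copper chaperone on the route by which lysyl oxidases receive copper, separated the replicate numbers and not the groups. It was at 31.2, 63.5 and 66.8 FPKM in control replicates 1, 2 and 3 and at 31.5, 63.3 and 68.3 FPKM in RCE replicates 1, 2 and 3. Lox and Loxl1 had their highest level in the replicate 1 libraries of both groups, and P4ha1, P4ha2 and Plod2 their lowest. These genes were singled out after their values were seen.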
